A study of Mus musculus with 6 samples.

Results

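The Krüppel-like transcription factor genes Klf2, Klf3, Klf4, Klf5, Klf6, Klf9, Klf10, Klf11, Klf13 and Klf15 were examined in RNA sequencing of bone cells from C57BL/6 mice. These 10 genes were taken by symbol from the 29616 genes of the deposited table, and all 10 were present. Of the 6 libraries, 3 are controls and 3 come from mice treated with the synthetic glucocorticoid dexamethasone. The mice were 8 weeks old at the start, and the dose was 0.08 µg/g on every day of a course of 4 weeks. The study names saline as the control. Bone cells is all that the labels say of the material, while the study describes Osteocalcin-positive cells taken from bones freed of their marrow. Neither source states whether a library came from 1 mouse or from several, so the p-values measure the spread between these libraries. In such bulk libraries, fewer cells of a type and less RNA per cell cannot be told apart.

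Krüppel-like factors are zinc finger proteins that bind GC-rich and CACCC-type sequences in promoters and enhancers. Their C-terminal DNA-binding fingers are much alike, whereas their N-terminal parts differ and recruit different partners. Klf3, Klf8 and Klf12 bind the corepressor CtBP, and Klf9, Klf10, Klf11, Klf13, Klf14 and Klf16 bind the corepressor Sin3. Klf1, Klf2, Klf4, Klf5, Klf6 and Klf7 are mostly activators that recruit acetyltransferases. Osterix (Sp7), the transcription factor of osteoblast commitment, belongs to the related Sp family. Klf9 and Klf15 are known as glucocorticoid receptor targets in several tissues, Klf10 was first described as a TGF-β-inducible gene of osteoblasts, and Klf2 and Klf4 are known for their roles in the quiescent endothelium.

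The libraries held 72596611 to 89910728 recovered reads. The values given here are normalized counts, that is reads per gene divided by a size factor for each library. They were compared on the log2 scale after adding 1, so that for scarce genes the fold change understates the ratio of the counts. A gene was called differentially expressed when its limma adjusted p-value, corrected over all 17442 tested genes, was under 0.05 and its log2 fold change was at least 1 in either direction. Of all tested genes, 22.3% were differentially expressed, 11.7% higher and 10.6% lower with dexamethasone, and 72.5% had an adjusted p-value under 0.05. After rescaling every library to an equal total (called the same total below), the median log2 fold change of all genes moved from 0.00071 to -0.11, and 1775 genes were called higher and 2163 lower, against 2037 and 1857 before. Values of named genes at the same total are given below where they differed by over 1.5 times or changed a call.

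Of the 10 members, 9 had enough reads to be tested, and 2 of these 9 were differentially expressed, a share like the 22.3% of all tested genes. Both, Klf10 and Klf5, were higher with dexamethasone. A total of 8 members had an adjusted p-value under 0.05, 6 of them higher and 2 lower, against 37.2% and 35.2% of all tested genes in these directions. The control and dexamethasone libraries did not overlap for 8 of the 9 tested members, against 74.7% of all tested genes. The median log2 fold change of the 9 tested members was 0.30, and it was 0.18 at the same total and 0.10 after quantile normalization. The plot of the members by library shows these values.

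**Figure D1:**
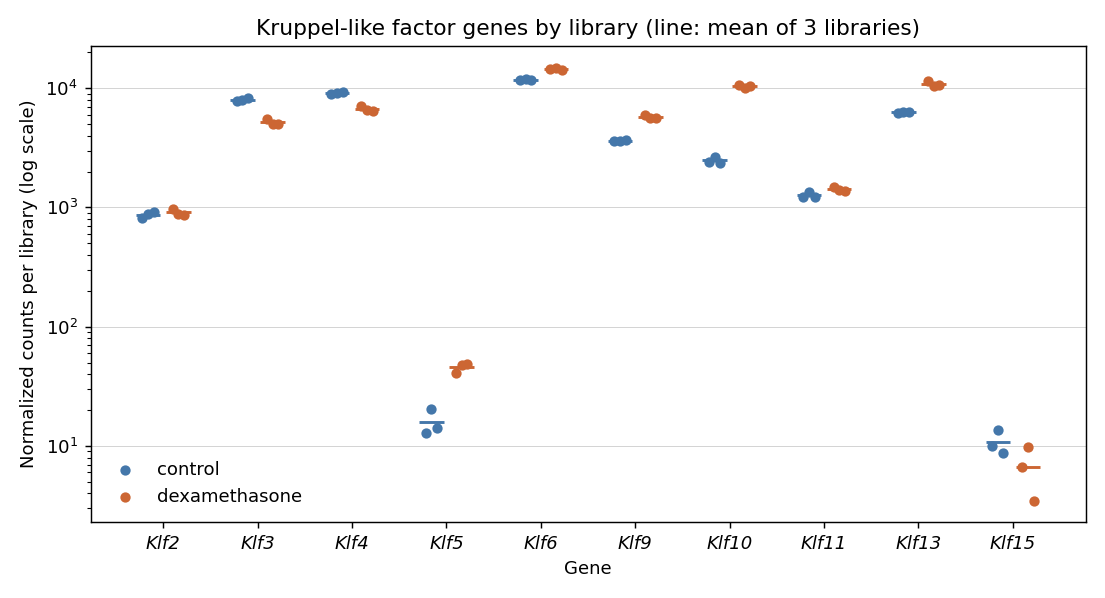
Normalized counts of the 10 Klf genes in each library on a log scale, with 3 control libraries (blue) and 3 dexamethasone libraries (orange) per gene and lines at the group means. Klf10 moved from about 2475 to 10385, Klf5 and Klf15 lay far below the other 8 genes, and the groups overlapped for Klf2 and Klf15.

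Klf10 (TIEG1), a zinc finger factor induced by TGF-β that acts mostly as a repressor, changed most. Its normalized counts were 2417, 2634 and 2373 in the controls, in replicate order, against 10584, 10082 and 10489 after dexamethasone. Every dexamethasone library lay far above every control library. The mean rose 4.20-fold, from 2475 ± 139.9 in the control to 10385 ± 267 in the dexamethasone group (SD, n = 3 each), which is 2.07 on the log2 scale with a standard error of 0.041 (limma adjusted p = 1.61e-23). This change was larger in size than that of 93.4% of the tested genes. The log2 fold change was 1.96 at the same total.

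Klf5, an activator known from epithelial and smooth muscle cells, was scarce. It had 14, 21 and 16 reads in the controls, in replicate order, against 43, 44 and 42 after dexamethasone. The groups did not overlap, although the control libraries differed among themselves by a coefficient of variation of 26.2%. In normalized counts the mean rose 2.90-fold, from 15.8 ± 4.14 in the control to 45.9 ± 4.28 in the dexamethasone group (SD, n = 3 each), which is 1.50 on the log2 scale with a standard error of 0.272 (limma adjusted p = 2.65e-05). Its log2 fold change ranged from 1.38 to 1.70 over the fits that left out 1 library each. Markers of epithelial cells were few in the same libraries. Of 5 such markers, 4 were in the table and 1 (Cdh1) had enough reads to be tested, and their summed normalized counts were 26.6 to 49.2 in the control and 12.8 to 20.99 in the dexamethasone libraries. Cdh1 did not pass the test (log2 fold change -0.45, limma adjusted p = 0.295), and the part of epithelial cells in the change of Klf5 was not tested.

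Klf13 and Klf9, both Sin3-binding factors of the BTEB type, rose by less than the fold cut-off. Klf13 had normalized counts of 6208, 6347 and 6362 in the controls, in replicate order, against 11481, 10400.0 and 10632 after dexamethasone. The dexamethasone libraries were all above the control libraries, and dexamethasone replicate 1 was the highest. The mean rose 1.72-fold, which is 0.78 on the log2 scale with a standard error of 0.0383 (limma adjusted p = 2.37e-15). Klf9, an early glucocorticoid and thyroid hormone response gene in other tissues, had normalized counts of 3575, 3633 and 3658 in the controls, in replicate order, against 5924, 5617 and 5641 after dexamethasone. The groups were again apart, and the control libraries differed by a coefficient of variation of only 1.18%. The mean rose 1.58-fold, which is 0.66 on the log2 scale with a standard error of 0.0373 (limma adjusted p = 4.03e-14). At the same total the log2 fold changes were 0.67 for Klf13 and 0.55 for Klf9.

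Klf6 and Klf11 were slightly higher with dexamethasone. Klf6, an abundant factor that responds early to growth stimuli and injury, had normalized counts of 11793, 11914 and 11699.8 in the controls, in replicate order, against 14382, 14868 and 14236 after dexamethasone. The groups did not overlap, and the mean rose 1.23-fold (log2 fold change 0.30, limma adjusted p = 2.94e-08). Klf11 (TIEG2), the close relative of Klf10, had normalized counts of 1227, 1351 and 1229 in the controls, in replicate order, against 1475, 1397 and 1369.8 after dexamethasone. The highest control library, replicate 2, lay just under the lowest dexamethasone library. The log2 fold change of Klf11 was 0.16 with a standard error of 0.0529 (limma adjusted p = 0.0106), far from the value of Klf10. At the same total it was 0.04 (limma adjusted p = 0.409) and after quantile normalization 0.04 (limma adjusted p = 0.425), so that the test of Klf11 was lost under both. For Klf6 the corresponding log2 fold changes were 0.18 and 0.10, with limma adjusted p-values of 2.67e-05 and 0.00528.

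Klf3 and Klf4 were lower with dexamethasone. Klf3 (BKLF), a CtBP-dependent repressor, had normalized counts of 7755, 7961 and 8223 in the controls, in replicate order, against 5486, 4967 and 5045 after dexamethasone. The groups did not overlap. The mean of the control libraries was 1.54 times that of the dexamethasone libraries, which is -0.63 on the log2 scale with a standard error of 0.0402 (limma adjusted p = 4.92e-13). A gene on the opposite strand, Gm20033, overlaps 3.59% of the exon bases of Klf3 in the GENCODE M21 annotation, and whether the count used strand is not given in the sources used here. Klf4, known as a pluripotency factor and as a brake on proliferation in epithelial and vascular cells, had normalized counts of 8891, 9108 and 9295 in the controls, in replicate order, against 7074, 6559 and 6441 after dexamethasone. Every dexamethasone library lay below every control library. The mean fell from 9098 ± 202 in the control to 6691 ± 337 in the dexamethasone group (SD, n = 3 each), and the log2 fold change was -0.44 with a standard error of 0.0386 (limma adjusted p = 1.85e-10). At the same total the log2 fold changes were -0.74 for Klf3 and -0.56 for Klf4, and neither reached the cut-off.

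Klf2 and Klf15 did not pass the test or could not be tested. Klf2 (LKLF), which is induced by laminar flow in endothelial cells and keeps T cells quiescent, had normalized counts of 812, 888 and 912 in the controls, in replicate order, against 978, 877 and 871 after dexamethasone. The groups overlapped, and the log2 fold change was 0.06 (95% interval -0.07 to 0.19, limma adjusted p = 0.389). It was -0.05 at the same total, so that its sign depended on the scaling. Klf2 was present at about 871 normalized counts in libraries with few endothelial transcripts. The 7 endothelial markers in the table, of 8, summed to 381 to 417 normalized counts in the control and 456 to 491 in the dexamethasone libraries. Most of this sum was Kdr, while Cdh5 and Tie1 had 3 reads or fewer in every library.

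Klf15, a regulator of amino acid catabolism and a glucocorticoid target in muscle and fat, had 11, 14 and 10 reads in control replicates 1, 2 and 3. It had 7, 9 and 3 reads in dexamethasone replicates 1, 2 and 3. A count of 0 allows up to 3 reads in a library, so dexamethasone replicate 3 was at that limit, which covers counting error only. The mean of 8.76 normalized counts over the 6 libraries was under the minimum of 10, and Klf15 was not tested. In a fit without this minimum its log2 fold change was -0.70 (standard error 0.466, limma adjusted p = 0.244), so no change of Klf15 was detectable at this depth.

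The tested Klf genes were then read by the corepressor that their proteins bind, a textbook grouping chosen after their values were seen. All 5 tested Sin3-binding genes, Klf9, Klf10, Klf11, Klf13 and Klf16, had positive log2 fold changes with an adjusted p-value under 0.05. Their median was 0.66. Among all tested genes, 37.2% were higher and 35.2% lower at an adjusted p-value under 0.05. Only Klf10 among the 5 was differentially expressed, and Klf11 lost the test under other scalings as given above. Klf16, a further repressor of this type, had normalized counts of 2299, 2593 and 2468 in the controls, in replicate order, against 4082, 3518 and 3838 after dexamethasone, which is 0.63 on the log2 scale (limma adjusted p = 3.66e-11). Both tested CtBP-binding genes, Klf3 and Klf8, were lower, with log2 fold changes of -0.63 and -0.45 (limma adjusted p = 0.00205 for Klf8). The activators went in both directions, with Klf5 and Klf6 higher, Klf4 and Klf7 lower, and Klf2 not passing the test. Klf7 fell from 8043 ± 169 in the control to 5079 ± 117 in the dexamethasone group (SD, n = 3 each), which is -0.66 on the log2 scale (limma adjusted p = 1.71e-14). These groups hold 2 to 5 tested genes each, and no test compared them.

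Klf1, the erythroid factor, had 3, 8 and 6 reads in the controls against 10, 3 and 0 after dexamethasone. Klf12 had 2 to 6 reads in each library, Klf14 had 3 reads in dexamethasone replicate 1 and none elsewhere, and Klf17 had 4 reads in control replicate 3 and none elsewhere. These 4 genes were too scarce for any comparison. Of the 9 tested genes among the 16 other Klf and Sp genes, 2 were differentially expressed, a share like the 22.3% of all tested genes. Both were lower. Sp7 fell from 7655 ± 404 in the control to 2102 ± 133 in the dexamethasone group (SD, n = 3 each) and Sp8, a limb patterning factor, from 396 ± 10.9 in the control to 112 ± 7.68 in the dexamethasone group (SD, n = 3 each), with log2 fold changes of -1.86 and -1.81 (limma adjusted p = 1.59e-21 and 5.14e-14). The broadly expressed Sp1 and Sp3, which compete with Klf proteins for GC boxes, had log2 fold changes of 0.32 and 0.17 (limma adjusted p = 1.29e-08 and 7.53e-05). At the same total these were 0.20 and 0.06, and Sp3 lost the test there (limma adjusted p = 0.0725) and after quantile normalization (limma adjusted p = 0.748). Sp4 was lower with a log2 fold change of -0.78, and Sp2 had one of 0.07 (limma adjusted p = 0.213), which changed sign at the same total.

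**Figure D2:**
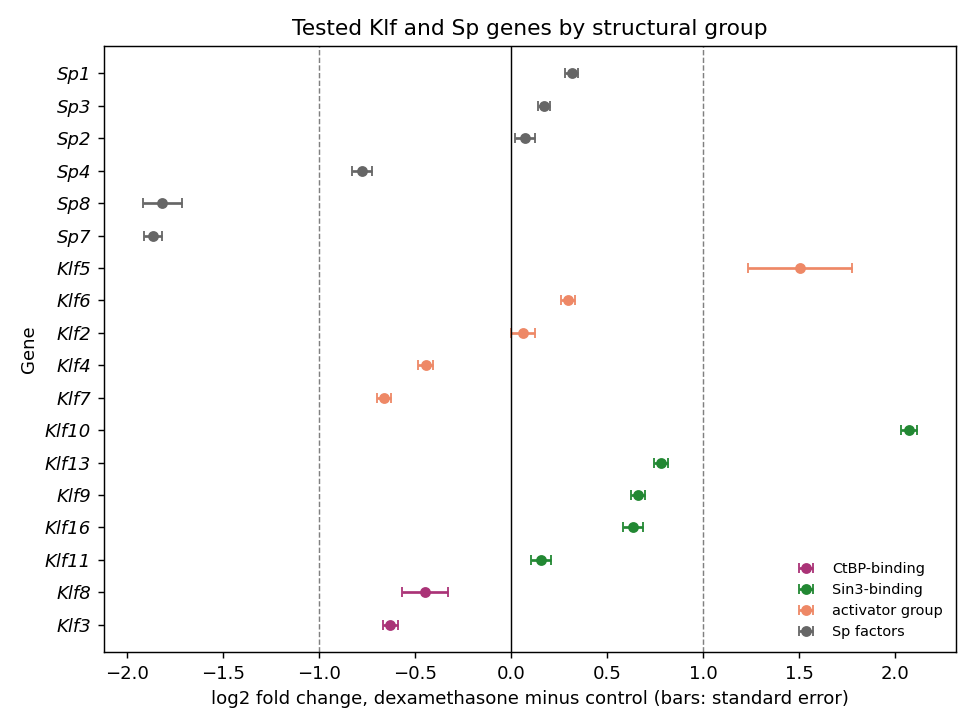
Log2 fold change of each tested Klf and Sp gene, dexamethasone minus control, with bars for the standard error, dashed lines at the cut-off of 1 in either direction and colors for the structural group. The 5 Sin3-binding genes lie above 0 and the 2 CtBP-binding genes below 0, while Klf10, Klf5, Sp7 and Sp8 lie beyond the cut-off.

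The levels of the members were compared with each other per kilobase of merged exons, since longer transcripts give more reads. In the control libraries Klf4 and Klf6 led with 2984 and 2688 normalized counts per kilobase and made up 32.0% and 28.8% of the sum of the 10 members. Klf13, Klf9, Klf3, Klf10, Klf2 and Klf11 followed with 837, 752, 709.8, 592, 471 and 292. Klf15 and Klf5 came last with 3.89 and 3.04, and the ranges of these last 2 genes overlapped while those of all other neighbors in this order did not.

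In the dexamethasone libraries the order was Klf6, Klf10, Klf4, Klf13, Klf9, Klf2, Klf3, Klf11, Klf5 and Klf15. Klf10 moved from the sixth to the second place with 2485 normalized counts per kilobase, and its share of the sum of the members went from 6.34% to 20.9%. Klf4 moved from the first to the third place with 2195. Klf2 and Klf3, with 492 and 459, were the only neighbors in this order whose ranges overlapped. The summed level of the 10 members was 9166, 9437 and 9399 normalized counts per kilobase in control replicates 1, 2 and 3. It was 12250.4, 11749 and 11694 in dexamethasone replicates 1, 2 and 3. The places of several genes, Klf3 among them, depended on the length used. With the longest principal transcript of 5221 bases in place of 11243 bases of merged exons, an alternative chosen after the data were seen, Klf3 took the third place in the control and the sixth in the dexamethasone libraries. Klf10 then moved from the fifth to the second place, and Klf5 lay above Klf15 in both groups.

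**Figure D3:**
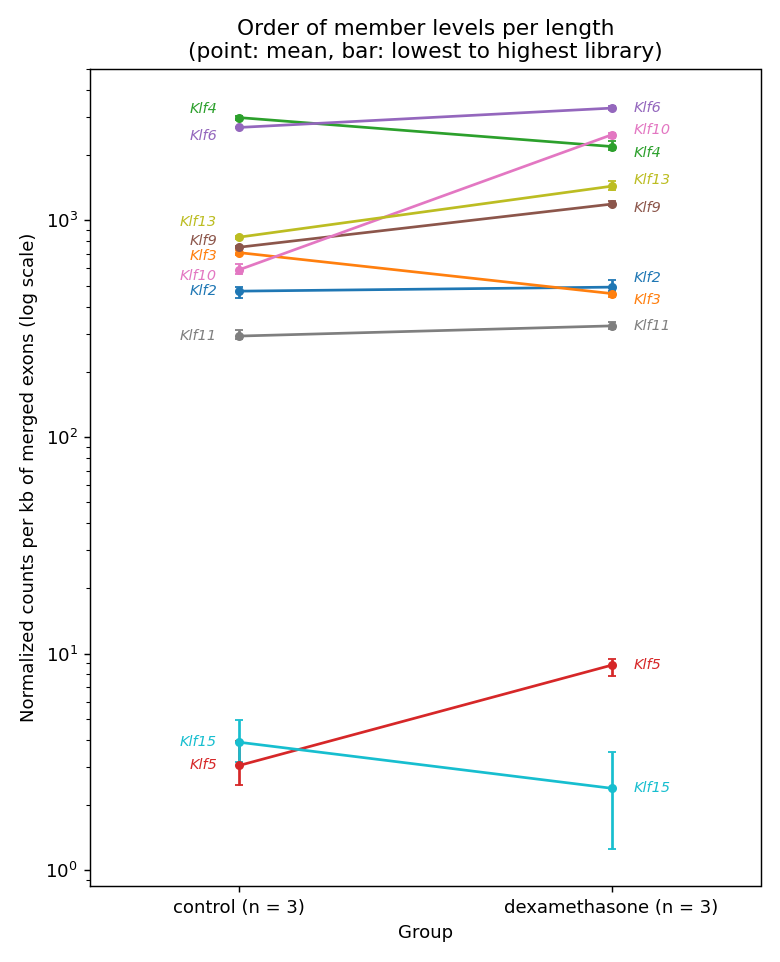
Normalized counts per kilobase of merged exons of the 10 members on a log scale, in the control (left) and dexamethasone (right) group, with points for the mean of 3 libraries and bars from the lowest to the highest library. The line of Klf10 crosses those of Klf3, Klf9, Klf13 and Klf4, from 592 to 2485. At this length Klf5 and Klf15 change places at the bottom, where their control ranges overlap.

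The direction of 8 of the 9 tested members was the same under each of the 17 alternative settings that gave a value, and Klf2 was the exception. Klf10 was differentially expressed in all 17 alternatives and Klf5 in the 16 that kept it. No other member reached the cut-off under any of them. The same total lowered the values of all 9 and quantile normalization those of all but Klf5. For each tested member but Klf5 the larger of these shifts exceeded that of leaving out any library, as the plot of the alternatives shows.

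**Figure D4:**
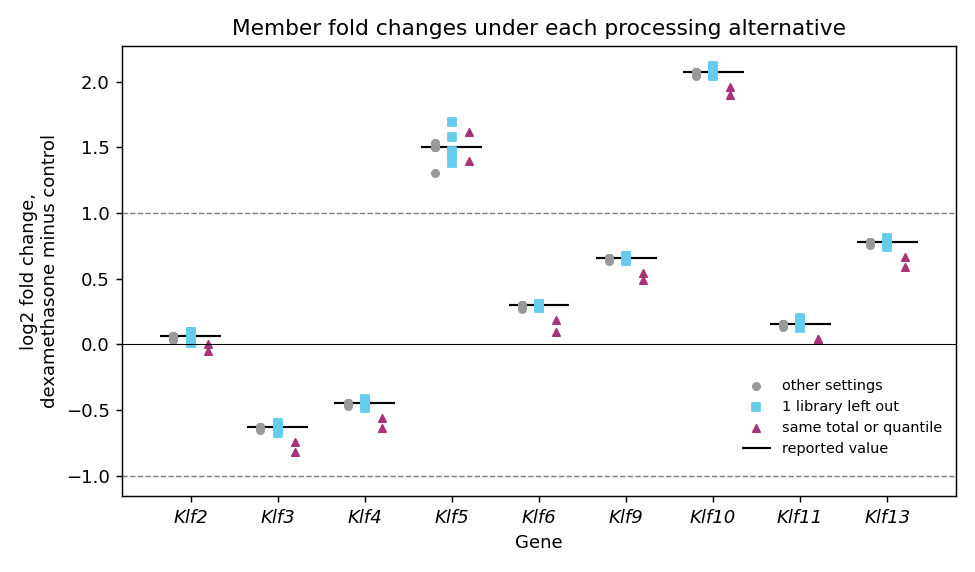
Log2 fold change of each tested member, dexamethasone minus control, under every processing alternative, with a line for the reported value, squares for fits without 1 library, triangles for the other scalings, circles for the remaining settings and dashed lines at the cut-off. Klf10 and Klf5 stay above 1, and the triangles of Klf11 and Klf2 come close to or below 0.

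Because Klf9 and Klf13 rose and Klf3 and Klf4 fell, their promoters are shown to compare what these genes carry just upstream of their starts. RefSeq promoter windows (GRCm38.p6) were held for 8 of the 10 members, the exceptions being Klf5 and Klf10. Each sequence below covers the 250 bases before the start, and capitals mark the GC box GGGCGG, a binding sequence of Sp and Klf proteins, on either strand. The windows are chr19:23140976-23141225 (plus strand) for Klf9, chr7:63938916-63939165 (minus strand) for Klf13, chr5:64803271-64803520 (plus strand) for Klf3 and chr4:55532476-55532725 (minus strand) for Klf4.
Klf9: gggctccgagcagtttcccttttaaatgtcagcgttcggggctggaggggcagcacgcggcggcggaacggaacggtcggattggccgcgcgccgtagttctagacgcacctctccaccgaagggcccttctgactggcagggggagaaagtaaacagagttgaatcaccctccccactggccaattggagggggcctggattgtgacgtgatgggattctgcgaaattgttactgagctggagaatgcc
Klf13: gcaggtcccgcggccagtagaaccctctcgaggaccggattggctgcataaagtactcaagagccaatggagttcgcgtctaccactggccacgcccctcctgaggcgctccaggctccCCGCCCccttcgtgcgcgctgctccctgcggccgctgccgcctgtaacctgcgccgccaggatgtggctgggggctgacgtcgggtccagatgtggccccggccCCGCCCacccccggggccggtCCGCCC
Klf3: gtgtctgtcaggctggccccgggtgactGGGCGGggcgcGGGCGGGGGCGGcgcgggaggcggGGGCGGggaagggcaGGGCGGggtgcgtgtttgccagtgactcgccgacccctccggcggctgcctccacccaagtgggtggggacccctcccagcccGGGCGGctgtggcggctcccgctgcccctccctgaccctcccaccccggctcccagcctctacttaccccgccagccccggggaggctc
Klf4: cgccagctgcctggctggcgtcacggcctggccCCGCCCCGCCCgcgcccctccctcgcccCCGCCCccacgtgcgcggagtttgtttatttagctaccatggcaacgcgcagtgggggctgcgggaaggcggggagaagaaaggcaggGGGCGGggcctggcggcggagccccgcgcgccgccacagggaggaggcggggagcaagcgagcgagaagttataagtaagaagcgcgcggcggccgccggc
Klf9 has no GC box in this stretch, Klf13 has 3, Klf3 has 6 and Klf4 has 4, with overlapping matches counted separately. Of the pair that rose, Klf9 thus lacked the box and Klf13 held it, and both genes that fell held it. Klf6 and Klf11, which were slightly higher and are not shown, held it too.

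In windows of 300 bases, from 250 before to 50 after the start, 7 of the 8 member promoters held GGGCGG on either strand, against 35.7% of all 32851 promoters in the table. The member promoters were also GC-rich, with 59.6% to 78.4% G and C in the 250 bases before the start against a median of 52.4%. CACCC was found in 5 of the 8 and in 57.5% of all promoters, CCAAT in 5 and 37.4%, and CACGTG in 4 (Klf4, Klf6, Klf11 and Klf15) and 7.15%. Glucocorticoid receptor sites were searched as the arms GNACA and TGTNC, and more strictly as AGAACA and TGTTCT, in both cases with any 3 bases between the arms, so that the first search covers the second. Neither was found in a member promoter, and they occur in 0.475% and 0.00913% of all promoters. Receptor sites further away were not searched. The MEF2 motif was found in Klf2 alone, against 0.557% of all promoters, and it is shown in capitals because MEF2 proteins carry the MEK5-ERK5 signal to Klf2. The window of Klf2 is chr8:72318812-72319061 (plus strand), and its GC boxes are left in lower case.
Klf2: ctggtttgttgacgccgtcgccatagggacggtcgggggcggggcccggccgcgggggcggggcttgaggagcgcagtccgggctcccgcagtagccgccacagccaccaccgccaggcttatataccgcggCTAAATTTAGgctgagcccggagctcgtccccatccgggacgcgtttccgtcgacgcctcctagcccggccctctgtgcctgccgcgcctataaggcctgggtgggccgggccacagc
The CArG box and TGACGTCA were found in none of the 8 and in 1.63% and 1.79% of all promoters, and TATAAA in none and in 13.6%.

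The genes around the family were read from lists chosen with earlier results known. The counts of each list below stand against 22.3% of all tested genes differentially expressed, 11.7% higher and 10.6% lower. An adjusted p-value under 0.05 was reached by 72.5% of all tested genes. None of the 12 cofactor genes was differentially expressed by limma, though all 12 had an unadjusted and an adjusted p-value under 0.05, 7 higher and 5 lower, with a median log2 fold change of 0.17 that was 0.06 at the same total and -0.01 after quantile normalization. The 12 gave no call with edgeR or DESeq2 either. Among the most abundant, the log2 fold changes were 0.66 for the corepressor Ctbp1, -0.07 for the acetyltransferase Ep300, 0.11 for Hdac2, which changed sign under other scalings, and 0.31 for the ubiquitin ligase Wwp1. At the same total Ep300 had -0.19 and Wwp1 0.19, and Hdac2 lost the test (limma adjusted p = 0.838). Named after their values were seen, Ctbp2, Sin3a and Sin3b had log2 fold changes of 0.76, 0.63 and -0.27 (limma adjusted p = 2.61e-14, 1.45e-13 and 3.87e-07).

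Of 13 genes of the MEK5-ERK5 cascade, its MEF2 effectors and the cerebral cavernous malformation complex, which set Klf2 and Klf4 in endothelial cells, 1 was differentially expressed. This was Mef2c, which fell from 5079 ± 149 in the control to 1768 ± 71.4 in the dexamethasone group (SD, n = 3 each) (-1.52 on the log2 scale, limma adjusted p = 1.5e-20). Mef2a and the kinase Map3k2 had log2 fold changes of -0.09 and 0.49, and Mef2a had -0.20 at the same total. Map3k3 lay just under the cut-off with 0.997 and passed it when any of 4 of the 6 libraries was left out. Its log2 fold change was lower at the same total (0.88) and after quantile normalization (0.81). The MEF2 corepressor Hdac5 had one of -0.53. The median of the 13 was -0.09, and it was -0.20 at the same total and -0.28 after quantile normalization.

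Of 9 endothelial and other targets of Klf2 and Klf4, 7 were tested, and 4 were differentially expressed lower and 1 higher, with a median log2 fold change of -1.001. The sphingosine-1-phosphate receptor S1pr1 fell from 7830.4 ± 678 in the control to 1379.9 ± 73.8 in the dexamethasone group (SD, n = 3 each), which is -2.50 on the log2 scale (limma adjusted p = 3.82e-23). Edn1, the endothelin precursor that Klf2 represses in endothelium, fell from 123 ± 25.2 in the control to 12.2 ± 2.56 in the dexamethasone group (SD, n = 3 each), which is -3.23 on the log2 scale (limma adjusted p = 7.64e-12). Nos3, a gene that Klf2 activates there, fell from 45.1 ± 10.7 in the control to 20.2 ± 7.62 in the dexamethasone group (SD, n = 3 each), a log2 fold change of -1.17 that was -0.83 without dexamethasone replicate 3 and -0.99 without control replicate 1. Vcam1 was at the cut-off with -1.001, and it was not called without control replicate 2 or dexamethasone replicate 2. Thbd and Cdkn1a had log2 fold changes of -0.90 and -0.73, and Thbd passed the cut-off under both other scalings. Sele had 1 to 2 reads in the control libraries against 29, 21 and 22 after dexamethasone, which made it at least 9.14-fold higher against a floor of 3 reads per library. The list mixes genes that Klf2 activates, such as Nos3, with genes that it represses, such as Edn1, and its median covers both. At an adjusted p-value under 0.05, 6 of the 7 tested were lower, S1pr1, Thbd and Cdkn1a among them, and only Sele was higher. Over all tested genes these shares were 35.2% and 37.2%. Klf4 had a log2 fold change of -0.44, and Klf2 did not pass the test. The part of Klf2 and Klf4 in the changes of these targets was not tested.

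Of 10 targets of Klf15 in muscle, liver and fat, 7 were in the table and 6 were tested, and none was differentially expressed by limma, whereas 3 had an unadjusted and an adjusted p-value under 0.05. The branched-chain aminotransferase Bcat2 had a log2 fold change of -0.41 and the atrophy ubiquitin ligase Fbxo32 one of -0.97, which passed the cut-off at the same total (-1.08) and after quantile normalization (-1.09). Gpt, an alanine aminotransferase, had one of 0.79 and Prodh, a proline dehydrogenase, one of -0.07 (limma adjusted p = 0.787), which was -0.18 at the same total. EdgeR and DESeq2 called none of the 6 either. The median of the 6 was -0.19, and it was -0.30 at the same total and -0.08 after quantile normalization.

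The TGF-β genes, which lie upstream and downstream of Klf10 and Klf11, went both ways. Of 12 tested genes 3 were differentially expressed higher and 4 lower, with a median log2 fold change of 0.15 that was 0.04 at the same total and -0.06 after quantile normalization. Among the ligands, Tgfb1 rose from 3877 ± 140.1 in the control to 8234 ± 412 in the dexamethasone group (SD, n = 3 each) and Tgfb2 fell from 5282 ± 91.6 in the control to 641 ± 60.9 in the dexamethasone group (SD, n = 3 each), with log2 fold changes of 1.09 and -3.04 (limma adjusted p = 8.22e-18 and 1.81e-24). Tgfb3 had a log2 fold change of -1.01, at the cut-off, and lost its call without control replicate 2 or dexamethasone replicate 2. Among the receptors, Tgfbr3 rose and Tgfbr2 fell, with log2 fold changes of 1.46 and -1.22, and Tgfbr1 had one of 0.75. Smad2 and Smad4, the signal carriers, had log2 fold changes of 0.04 and 0.27, which were -0.08 and 0.15 at the same total. After quantile normalization Smad4 did not pass the test (limma adjusted p = 0.0568). Skil, a feedback repressor of Smad signaling, had one of 1.09, and osteoprotegerin (Tnfrsf11b), the decoy receptor that restrains osteoclasts, one of -1.79 (limma adjusted p = 7.42e-22). Tgfb1 and Skil fell short of the cut-off at the same total, with 0.97 and 0.97.

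Of 7 tested partners of Klf factors in fat cell differentiation, Cebpb was differentially expressed higher, from 1989 ± 61.2 in the control to 4915 ± 437 in the dexamethasone group (SD, n = 3 each) (1.30 on the log2 scale, limma adjusted p = 1.21e-17). The preadipocyte factor Zfp423 was differentially expressed lower, with a log2 fold change of -1.28. Srebf1 and Ebf1 had log2 fold changes of 0.47 and -0.50, and the median of the 7 was 0.47. Adipocyte markers other than Fabp4 were near 0, since Adipoq, Plin1, Cidec and Lep had at most 9 reads in any library, whereas Fabp4 had 2 to 3 reads in the controls against 1481, 1293 and 1308 after dexamethasone.

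The 6 known glucocorticoid target genes read here were all higher, whereas the receptor genes Nr3c1 and Nr3c2 were lower. Of 8 receptor and target genes 6 were differentially expressed higher and 1 lower, with a median log2 fold change of 1.65. Sgk1 rose 19.1-fold and Fkbp5 21.3-fold, with log2 fold changes of 4.25 and 4.41, and Tsc22d3, Per1 and Dusp1 had 1.65, 1.49 and 1.64. Zbtb16 had no reads in the controls against 39, 42 and 39 after dexamethasone, at least 15.4-fold higher against the floor of 3 reads per library. The receptor gene Nr3c1 had a log2 fold change of -0.92, which passed the cut-off at the same total (-1.04) and after quantile normalization (-1.12), and the mineralocorticoid receptor gene Nr3c2 one of -1.13. The log2 fold change of Klf9 (0.66) lay below those of the 6 genes called higher, and that of Klf10 (2.07) lay among them.

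Klf2, Klf4, Klf6 and Klf10 are also early response genes that handling and tissue digestion can induce, so 16 immediate early and heat shock genes were read in the same libraries. Of 15 tested, 5 were differentially expressed higher and 3 lower, with a median log2 fold change of 0.76. Egr1, Egr2, Egr3, Jun and Ier2 rose, with log2 fold changes of 2.51, 1.91, 2.73, 1.58 and 1.17. Atf3, Jund and Btg2 fell, with -1.97, -1.49 and -1.01, the last of which was short of the cut-off without dexamethasone replicate 3. The chaperone gene Dnajb1 had one of 0.76. At an adjusted p-value under 0.05, 10 of the 15 were higher and 4 lower, against 37.2% and 35.2% of all tested genes. More of these genes thus moved with Klf10 than against it, and their part in the change of Klf10 was not tested.

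**Figure D5:**
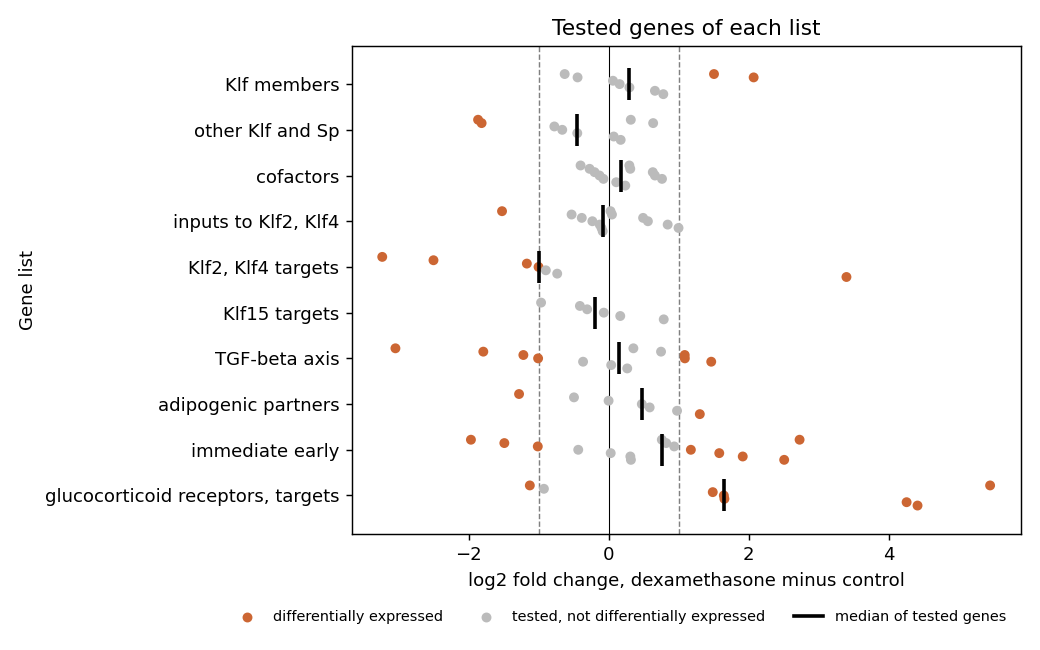
Log2 fold change, dexamethasone minus control, of every tested gene in the Klf family and the lists around it, with differentially expressed genes in orange, other tested genes in grey, bars at the list medians and dashed lines at the cut-off. The targets of Klf2 and Klf4 have a median of -1.001 and the glucocorticoid receptor and target genes one of 1.65, while the cofactors all lie within the cut-off.

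The cell type that the study describes was checked against osteoblast markers. All 8 were detected, and 7 were differentially expressed lower and 1 higher. Their sum went from 952190.0 to 1018440.4 normalized counts in the control to 260402 to 295753 in the dexamethasone libraries, mostly Col1a1. The marker that was higher was Dmp1, an osteocyte matrix gene, which rose from 38.5 to 5639. The Osteocalcin gene Bglap, whose product the cells were selected for, had few reads, with 107, 104 and 139 in the controls against 10, 11 and 13 after dexamethasone, and its near-identical copy Bglap2 can share reads with it. Smooth muscle and pericyte markers summed to 148092 to 155942 in the control and 21898 to 23354 in the dexamethasone libraries, mostly Acta2. Of the 5 tested, only 1 was differentially expressed, lower, and the median log2 fold change was 0.06. The 6 pan-hematopoietic markers summed to 94.0 to 129 and 776 to 823, where Cd53 and Itgb2 were higher, Laptm5 and Coro1a were lower with dexamethasone, and Ptprc had 2 to 5 reads in each library. Macrophage markers (4 of 6 in the table) summed to 1464 to 1483 and 1464 to 1653, with Cd68 and Cd14 higher and Lyz2 lower. Skeletal muscle markers (5 of 6) summed to 63.3 to 79.3 and 55.6 to 73.5, and erythroid markers (5 of 6) to 30.3 to 40.4 and 20.99 to 49.1. The part of these cell types in the changes of the Klf genes was not tested.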

How the data were processed

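RNA was sequenced in 3 control and 3 dexamethasone libraries made with a stranded mRNA kit. Per the submitters' processing notes and the study's methods, the authors aligned and counted reads per gene with STAR 2.7.10a and normalized with DESeq2 1.36.0, and GRCm39 is the genome named. The annotation release and strand setting are not given in the sources used here. The deposited table gives a signal for each gene in each library, which is its number of reads after division by a size factor. The values were whole multiples of the value of 1 read for 100% of the values (tolerance 0.001), which gave 72596611 to 89910728 reads per library.

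Symbols, exon lengths and overlaps came from GENCODE M21 (GRCm38), which matched 28087 of 29616 genes, and promoters from RefSeq (GRCm38.p6). Of the 75-base positions of the member transcripts, 97.1% (Klf3) to 100% occur in no other gene.

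Genes averaging 10 or more normalized counts were compared as log2(value + 1) with limma 3.58.1 (mean-variance trend) in R 4.3.3, and p-values were adjusted by Benjamini and Hochberg's method over every tested gene. Gene lists are described by counts and medians only. The members and lists were chosen with earlier results of these data known, and the corepressor grouping was made after the values were seen. Named were the members, all tested Klf and Sp genes, and in each list the called genes and the 4 with the highest mean, apart from genes stated otherwise and cell type markers. Replicate libraries differed by more than sampling noise (chi-square per degree of freedom 3.52 to 29.6). Alternatives were other pseudocounts (0.5 and 5), filters and scalings, limma without trend, counts tested with edgeR 4.0.16 or with DESeq2 1.42.0, a replicate block and each library left out. On simulated counts of 17256 genes with 200 changed, limma, edgeR and DESeq2 recovered 200, 200 and 198 and falsely called 5, 5 and 1. Recovery of changes under the fold cut-off, or with a share of changed genes like the 22.3% called here, was not tested.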

Additional observations from a re-analysis of the deposited data

How the results depend on the processing

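Differentially expressed genes numbered 3894 (2037 higher, 1857 lower). More genes were lower than higher at the same total (2163 against 1775) and without a filter (2695 against 2631). Calls were 2170 (1350 higher, 820 lower) where a mean of 100 was required, and 12645 at an adjusted p-value under 0.05 alone, both by construction. Leaving out each library gave 3888 to 3922. Of the members, 2 were called, 1 with the mean of 100 required, where Klf5 was not tested, and 8 at an adjusted p-value under 0.05 alone. Leaving out any library gave 2 members. On the recovered reads edgeR called 3944 genes and DESeq2 3870, and both called the same 2 members. Klf15 gave a value only without a filter.

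The sign changed for small values. At the same total and after quantile normalization, Klf2 (0.06) went to -0.053 and -0.00022, Sp2 (0.07) to -0.042 and -0.075, Hdac2 (0.11) to -0.0061 and -0.062, and Smad2 (0.04) to -0.078 and -0.17. Prodh (-0.07) went to 0.033 after quantile normalization, and leaving out each library gave -0.24 to 0.10, above 0 without control replicate 3 (0.10) or dexamethasone replicate 1 (0.052). The cause was not tested. Of the named genes that are no members, 6 lost a call in 11 fits and 4 gained one in 12.

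Whether equal replicate numbers mark paired libraries is not given in the sources used here. Same-numbered deviations from the group means had correlations of -0.0999, -0.105 and -0.0199. With so few libraries per group these values cannot exclude pairing. With the replicate block 3897 genes and 2 members were called.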
